A study of Mus musculus with 24 samples.

Results

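The mitochondrial carrier family Slc25 was followed through activation and the germinal center (GC) reaction in mouse B cells. The members are all genes whose symbol begins with Slc25a and a digit, with Slc25a20 left out by the rule, that reached 0 log2 or more in at least 3 of the 24 libraries. That minimum was met by 40 of the 46 such symbols, among 11885 of 23420 genes in all. The 6 symbols under it were Slc25a2, Slc25a31, Slc25a34, Slc25a41, Slc25a48 and Slc25a54, and they are not described further. The minimum was met in all 24 libraries by 33 members. Slc25a21 reached 0 log2 only in GC libraries, and Slc25a27, Slc25a43 and Slc25a47 only in in vitro libraries, so their excess in those groups is tied to the minimum and is given as a description, with no p. The counts of members below include them and support nothing about the family.

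RNA was measured in B cells from spleens of Balb/c mice, with 3 libraries in each of 8 groups. The groups are early GC, peak GC and late GC cells, in vivo activated cells, cells activated in vitro for 4, 12 or 24 h, and naive cells. All groups share the strain, the tissue, the bead purification and the sort with antibodies. No genotype, transgene, immunogen, stimulus, day, age or sex is stated in the labels, nor whether libraries of a group came from separate animals, pools or cultures, so a p-value speaks only for the spread among the libraries at hand, which may be technical. The study set freshly isolated GC cells beside naive and activated cells, and the comparisons here follow that design.

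Carriers of this family sit almost all in the inner mitochondrial membrane and exchange metabolites between the matrix and the cytosol. They include the ADP/ATP carriers, which export ATP, the phosphate carrier, carriers of di- and tricarboxylic acids and amino acids, carriers of cofactors, nucleotides, glutathione and iron, and relatives of the uncoupling proteins. A resting naive B cell that is activated grows and then divides, and a GC B cell divides fast while its antibody genes mutate, so both draw on mitochondrial ATP, aspartate, citrate and one-carbon units.

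Levels are log2 values as deposited, which act like CPM on the linear scale, and a difference is in log2 with its standard error (SE). A member is said to have risen, fallen or changed where limma, fitted over all 24 libraries and adjusted over the 11885 genes, gave an adjusted p under 0.05. Group means carry the standard deviation (SD, n = 3). In bulk samples, fewer cells of a type and less RNA per cell cannot be told apart.

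Libraries of a group correlated at 0.984 to 0.994 across the genes tested. GC markers summed to 10.41 to 10.54 log2 in peak GC libraries and 7.03 to 7.08 log2 in naive libraries, and B-cell markers to 12.24 to 12.47 log2 and 12.49 to 12.57 log2. Marker lists for other cells also moved with the GC stages. Erythroid markers summed to 7.27 to 8.66 log2 in early GC, 6.43 to 6.74 log2 in peak GC, 8.47 to 9.09 log2 in late GC and 5.42 to 5.6 log2 in naive libraries, with Hba-a1 at the floor in every library. Macrophage markers summed to 8.81 to 10.93 log2 in late GC against 6.69 to 7.96 log2 in peak GC, and neutrophil markers to 6.33 to 10.09 log2 against 4.49 to 6.59 log2, late GC replicate 1 being the highest in both. T-cell markers reached 3.06 to 4.69 log2 in late GC, 2.15 to 2.89 log2 in peak GC and 2.35 to 3.30 log2 in naive libraries, and plasma-cell markers 10.38 to 10.62 log2, 10.15 to 10.40 log2 and 8.53 to 8.68 log2. Of the Y-linked genes, Kdm5d, Eif2s3y and Ddx3y gave values at the floor in the 12 GC and in vivo activated libraries and of 3.96 to 5.77 log2 in the 12 in vitro and naive libraries. Sex of the source animals and the comparison of GC or in vivo activated cells with naive cells therefore cannot be told apart, and 4 members, Slc25a5, Slc25a14, Slc25a43 and Slc25a53, lie on the X chromosome.

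The summed level of the family was higher in every activated or GC group than in naive cells, and 3 members held most of the difference. Summed on the linear scale, the 40 members came to 2789.2 ± 25.8 (linear CPM-like units) in early GC, 2711.5 ± 62.6 in peak GC, 2682.8 ± 19.2 in late GC, 3048.0 ± 75.9 after in vivo activation and 1979.3 ± 25.1 in naive libraries (SD, n = 3 each). In vitro the sum was 3132.0 ± 65.4 at 4 h, 3375.2 ± 8.9 at 12 h and 3729.1 ± 12.2 at 24 h. All libraries of every activated or GC group were above the 3 naive libraries. The share held by Slc25a3, Slc25a4 and Slc25a5 together was 57.0% in peak GC, 62.6% in in vivo activated, 66.0% in 24 h and 43.4% in naive libraries. The other 37 members summed to 1166.4 ± 26.9 in peak GC, 1138.6 ± 17.7 in in vivo activated, 1268.0 ± 11.2 in 24 h and 1121.2 ± 17.5 in naive libraries. These sums are given without a test.

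**Figure D1:**
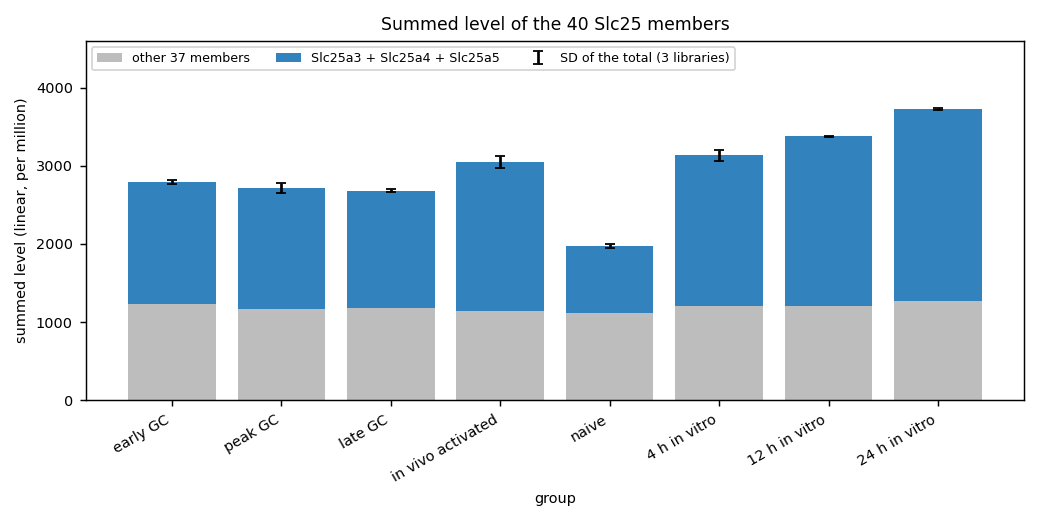
Summed linear level (CPM-like units) of the 40 members in each group; bars are means of 3 libraries, split into Slc25a3, Slc25a4 and Slc25a5 (blue) and the other 37 members (grey), and error bars are the SD of the total. The blue part is largest at 24 h in vitro, where the total is 3729.1, and smallest in naive cells, and the grey part lies between 1121.2 and 1268.0 in all groups.

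Per kilobase of exon, Slc25a5 stood at the top in every group shown here, at 9.39 log2 in peak GC libraries, 9.61 after in vivo activation, 10.14 in 24 h and 8.39 in naive cells. The phosphate carrier Slc25a3 came next, at 8.10, 8.52, 8.78 and 7.52 log2 per kilobase in the same groups. Slc25a4 was the third in peak GC, in vivo activated and 24 h cells, at 6.54, 6.86 and 6.74 log2 per kilobase. In naive cells the oxoglutarate carrier Slc25a11 was the third, at 5.79 log2 per kilobase, above Slc25a4 at 5.46, a gap wider than the SDs of 0.09 and 0.04. Behind the first 3, neighbours in the order often differed by less than their spread, as Slc25a37 and Slc25a33 did in peak GC cells at 4.02 ± 0.185 and 4.01 ± 0.262.

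Members did not move as one. Between the 8 group means, 8 members ranged by under 1 log2, 18 by 1 to under 2 log2 and 14 by 2 log2 or more. The narrowest ranges belonged to Slc25a46, an outer-membrane protein tied to mitochondrial fission (0.50 log2), to the NAD carrier Slc25a51 (0.52), to Slc25a17, a cofactor carrier of peroxisomes (0.58), and to the branched-chain amino acid carrier Slc25a44 (0.60). The widest were Slc25a21, Slc25a27, Slc25a43 and Slc25a13. The 24 h in vitro group held the highest mean of 8 members and the lowest of 5. Naive cells held the highest mean of 8 members and the lowest of 13, so the resting state was not the low point of the whole family.

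**Figure D2:**
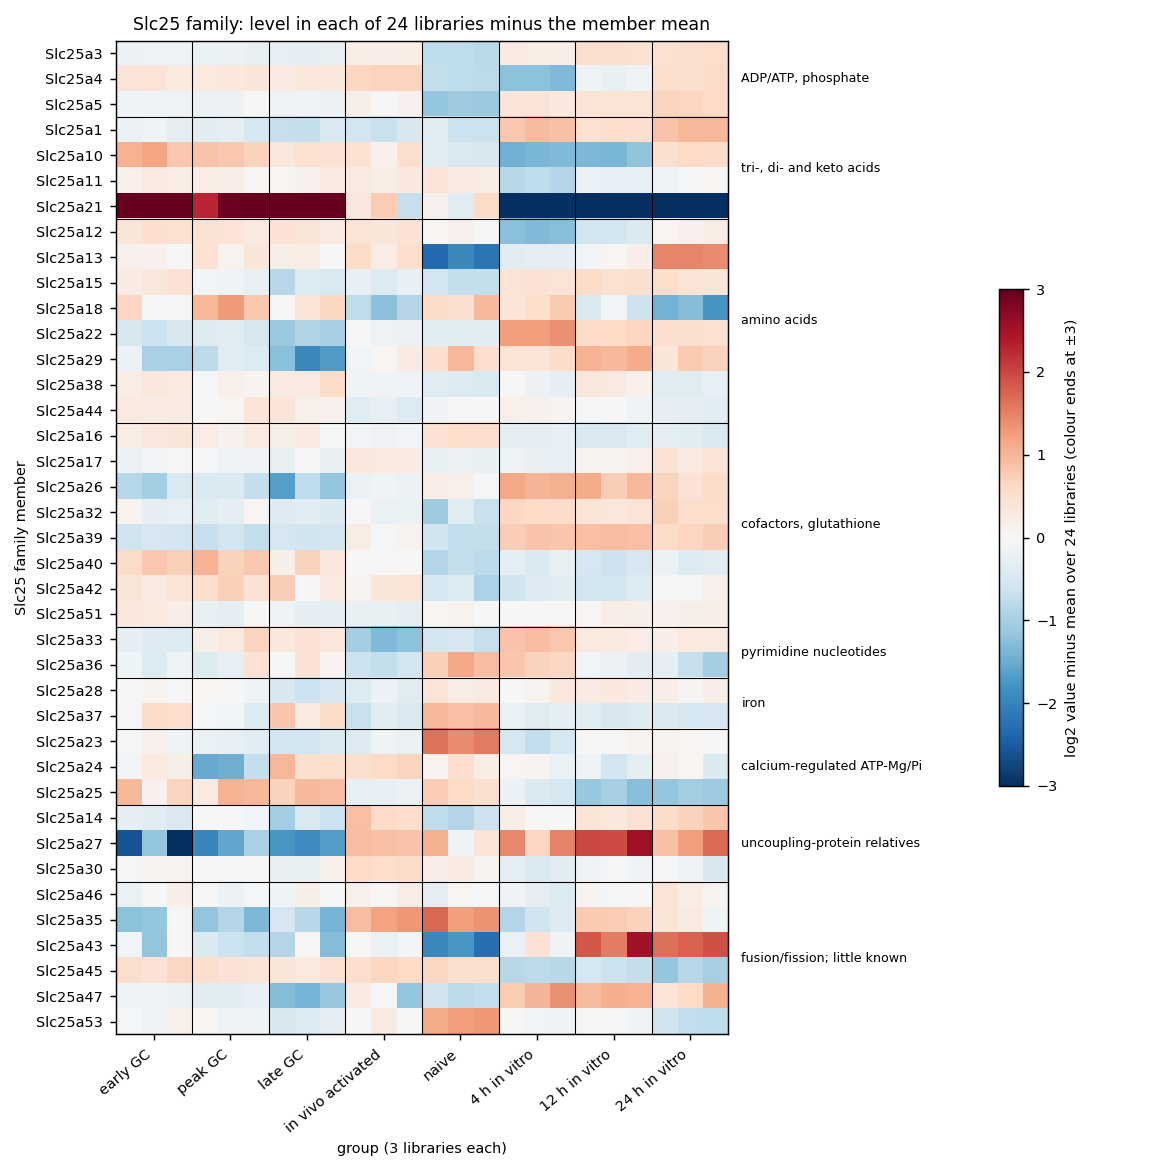
Level of each of 39 of the members (rows, grouped by what the proteins carry) in each of the 24 libraries (columns, 3 per group), as log2 minus the member's mean over all libraries; red is above and blue below, and the colour ends at ±3. The 3 libraries of a group look alike for most members, Slc25a13 is bluest in naive cells and reddest at 24 h, and Slc25a21 is red in all 3 GC groups and at the floor in all in vitro groups.

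In peak GC cells, 17 of the 40 members rose and 12 fell against naive cells, with 11 not called. Of all genes tested, 40.5% rose and 39.3% fell, so these counts lie near the background. The median difference was 0.165 log2 over the members and 0.008 over all genes. After in vivo activation 18 members rose and 12 fell against naive cells, beside 39.2% and 40.1% of all genes, with a median of 0.263 log2 against -0.022. In vitro, 16 rose and 13 fell at 4 h (38.9% and 39.1% of all genes), 18 rose and 15 fell at 12 h (41.7% and 39.2%), and 20 rose and 13 fell at 24 h (42.2% and 42.5%). The medians over members were -0.013, 0.183 and 0.385 log2 at 4, 12 and 24 h, and -0.009, 0.027 and -0.009 over all genes. All 5 comparisons use the same 3 naive libraries, so their counts are not independent of each other. What follows is therefore about which carriers moved, not about the share that did.

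**Figure D3:**
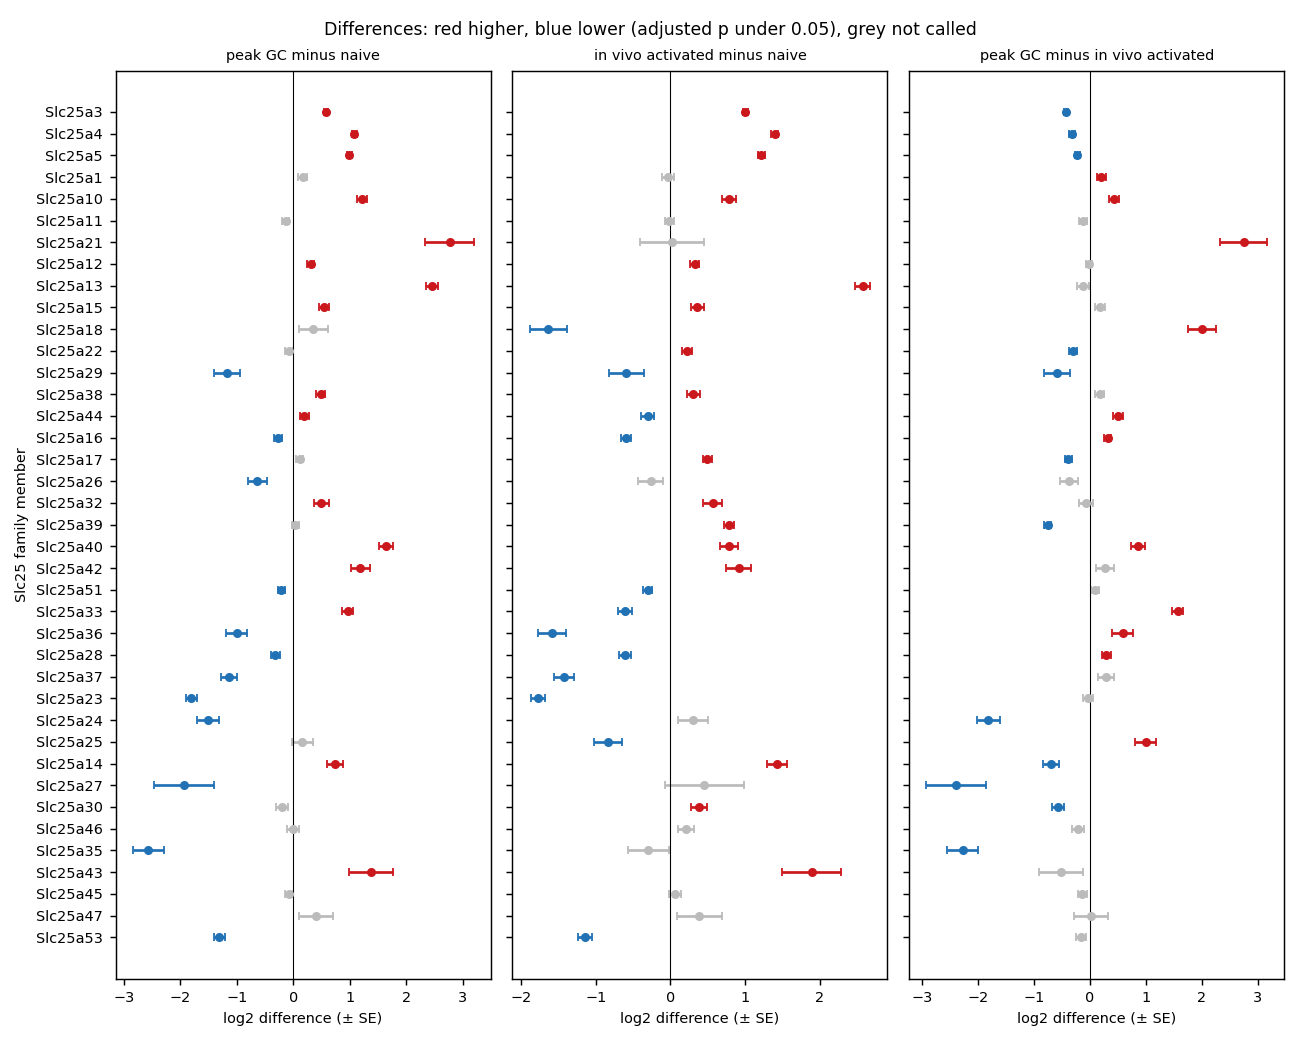
Log2 difference with its SE for each of 39 of the members, in peak GC minus naive, in vivo activated minus naive, and peak GC minus in vivo activated cells; red points rose, blue points fell and grey points were not called. Slc25a13 lies far right in both comparisons with naive cells and near 0 in the comparison of peak GC with in vivo activated cells, where Slc25a33 is at 1.57 and Slc25a39 at -0.75.

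The ADP/ATP carriers exchange matrix ATP for cytosolic ADP, and Slc25a3 brings in the phosphate that ATP synthase needs. Slc25a5 (chrX:36795651-36798807, plus strand, mm10), the isoform of growing cells, had 9.64, 9.65 and 9.80 log2 in peak GC libraries, 9.998, 9.83 and 9.94 after in vivo activation, and 8.65, 8.76 and 8.71 in naive libraries. In vitro it had 10.20, 10.20 and 10.13 log2 at 4 h, 10.21, 10.22 and 10.23 at 12 h, and 10.48, 10.46 and 10.40 at 24 h. Every activated or GC library was above every naive library, and the 24 h libraries were the highest. The rise over naive cells was 0.99 ± 0.05 in peak GC (adjusted p = 2.69e-15), 1.22 ± 0.05 after in vivo activation and 1.74 ± 0.05 at 24 h (adjusted p = 5.03e-20). Slc25a3 rose by 0.58 ± 0.03 in peak GC cells, 1.01 ± 0.03 after in vivo activation and 1.27 ± 0.03 in 24 h cells, all against naive cells.

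Slc25a4, the ADP/ATP carrier known best from heart and muscle, did not follow Slc25a5 in time. Naive libraries had 6.45, 6.40 and 6.37 log2, 4 h libraries 5.91, 5.94 and 5.82, 12 h libraries 7.03, 6.94 and 7.04, and 24 h libraries 7.68, 7.64 and 7.73. It was thus lowest at 4 h, below all naive libraries, and above them at 12 and 24 h. The difference from naive cells was -0.51 ± 0.05 at 4 h (adjusted p = 6.22e-10), 0.60 ± 0.05 at 12 h and 1.28 ± 0.05 at 24 h (adjusted p = 1.22e-17). Peak GC libraries had 7.45, 7.47 and 7.53 log2 and in vivo activated libraries 7.78, 7.82 and 7.81, both above the naive range, with differences from naive cells of 1.08 ± 0.05 and 1.40 ± 0.05. All 3 abundant carriers were lower in peak GC than in in vivo activated cells, Slc25a3 at -0.42 ± 0.03, Slc25a4 at -0.32 ± 0.05 and Slc25a5 at -0.22 ± 0.05.

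The aspartate-glutamate carriers send aspartate out of the matrix and serve the malate-aspartate shuttle, which moves reducing equivalents into mitochondria. Slc25a13 (chr6:6041218-6217173, minus strand), known as citrin, had 4.61, 4.30 and 4.54 log2 in peak GC libraries, 4.73, 4.41 and 4.68 after in vivo activation, and 1.84, 2.26 and 1.99 in naive libraries. At 4 h it had 3.87, 3.91 and 3.90 log2, at 12 h 4.10, 4.24 and 4.38, and at 24 h 5.66, 5.65 and 5.604. Naive cells stood well below all other groups and 24 h cells above them, with no overlap on either side. The difference from naive cells was 2.45 ± 0.10 in peak GC (adjusted p = 4.92e-16), 2.58 ± 0.10 in in vivo activated and 3.61 ± 0.10 in 24 h cells (adjusted p = 2.24e-19). From 12 to 24 h Slc25a13 rose by 1.40 ± 0.10 (adjusted p = 1.04e-10).

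Slc25a12, the paralog known as aralar, is the form of heart, muscle and brain. Naive libraries had 5.93, 5.99 and 5.91 log2, 4 h libraries 4.61, 4.55 and 4.59, 12 h libraries 5.31, 5.30 and 5.42, and 24 h libraries 5.93, 5.98 and 6.07. The 4 h libraries were the lowest of all and the 24 h libraries overlapped the naive ones. The difference from naive cells was -1.36 ± 0.06 at 4 h (adjusted p = 6.91e-16), -0.59 ± 0.06 at 12 h and 0.05 ± 0.06 at 24 h (adjusted p = 0.389). Peak GC libraries had 6.31, 6.27 and 6.16 log2, a rise of 0.31 ± 0.06 over naive cells, and in vivo activated libraries 6.28, 6.22 and 6.30, a rise of 0.32 ± 0.06. So at 4 h the 2 paralogs moved in opposite directions from the same naive libraries, and no test of that difference was made. Of the 4 malate-aspartate enzymes, 3 rose and 1 fell in peak GC against naive cells, and 3 rose and 0 fell at 24 h; the matrix transaminase Got2 averaged 8.37 log2 at 24 h and 6.45 in naive cells (1.92 ± 0.05).

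**Figure D4:**
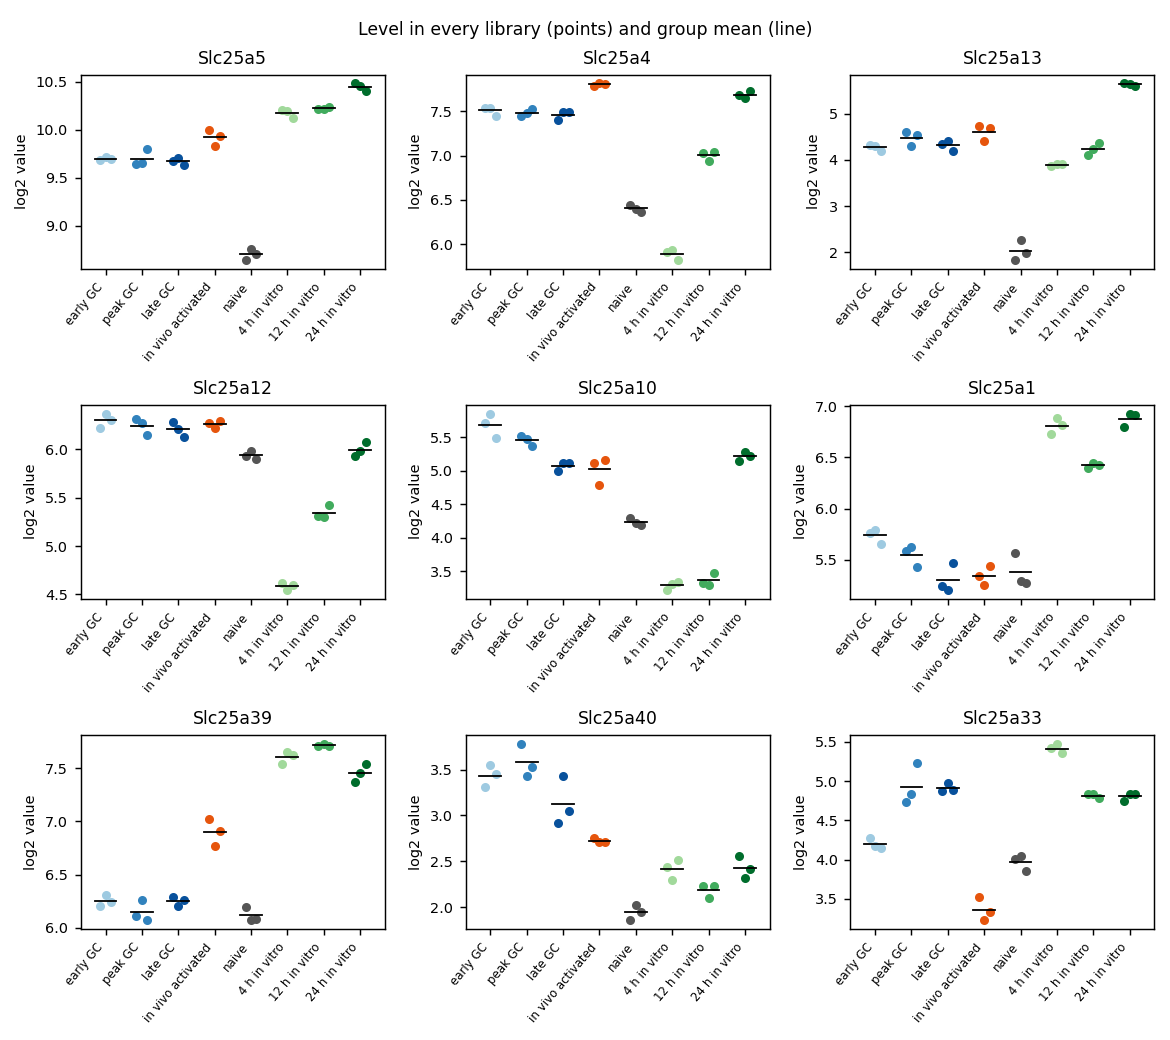
Log2 level of 9 members in every library (points) with the group mean (line), each panel with its own vertical range. Slc25a4, Slc25a12 and Slc25a10 dip at 4 h below naive cells and recover by 24 h, Slc25a13 is highest at 24 h, and Slc25a39 is high in vitro while Slc25a40 is highest in peak GC cells.

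The di- and tricarboxylate carriers link the citric acid cycle with the cytosol. Slc25a1, the citrate carrier that feeds lipid synthesis, had 5.56, 5.29 and 5.28 log2 in naive libraries, 6.73, 6.88 and 6.82 at 4 h, 6.39, 6.45 and 6.42 at 12 h, and 6.79, 6.93 and 6.91 at 24 h. Peak GC libraries had 5.59, 5.63 and 5.43 log2 and in vivo activated libraries 5.34, 5.25 and 5.44, both of which overlapped naive libraries. The in vitro rise over naive cells was 1.43 ± 0.08 at 4 h (adjusted p = 7.69e-14) and 1.501 ± 0.08 at 24 h, while peak GC cells differed by 0.17 ± 0.08 (adjusted p = 0.0543) and in vivo activated cells by -0.03 ± 0.08 (adjusted p = 0.73). Of the 4 citrate enzymes, 4 rose at 24 h over naive cells, and in peak GC cells 2 rose and 2 fell. Acly, which splits citrate in the cytosol, averaged 9.27 log2 at 24 h and 8.47 in naive cells.

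Slc25a10, the dicarboxylate carrier, had 5.52, 5.48 and 5.37 log2 in peak GC libraries, 5.12, 4.80 and 5.16 after in vivo activation, and 4.30, 4.22 and 4.196 in naive libraries. In vitro it had 3.22, 3.31 and 3.35 log2 at 4 h, 3.32, 3.30 and 3.47 at 12 h, and 5.15, 5.28 and 5.22 at 24 h. The 4 h and 12 h libraries lay below all naive libraries and the others listed above them. Its rise from 12 to 24 h was 1.85 ± 0.09 (adjusted p = 3.93e-14). The markers of dividing cells, Mki67 and Top2a, summed to 4.46 to 4.63 log2 at 4 h, 5.44 to 5.51 at 12 h and 9.89 to 9.98 at 24 h, to 10.87 to 11.27 in peak GC and to 5.88 to 6.17 in naive cells, and their part in the rise was not tested. Slc25a11, the oxoglutarate carrier, serves the malate-aspartate shuttle together with the aspartate-glutamate carriers. Slc25a11 differed from naive cells by -1.11 ± 0.07 at 4 h, -0.52 ± 0.07 at 12 h and -0.33 ± 0.07 at 24 h, all called. In peak GC cells it differed by -0.14 ± 0.07 (adjusted p = 0.0579).

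Slc25a21 (chr12:56712634-57197472, minus strand), a carrier of oxodicarboxylates from lysine and tryptophan breakdown, met the minimum through GC libraries alone. It had 1.54, 1.96 and 1.56 log2 in early GC, -0.06, 0.61 and 1.05 in peak GC, 2.05, 1.84 and 2.16 in late GC, and -2.22, -2.71 and -1.76 in naive libraries. In vivo activated libraries had -2.01, -1.59 and -3.03 log2, and all 9 in vitro libraries were at the floor, so no fold is given for them. All GC libraries were above all others. The difference of peak GC from naive cells was 2.76 ± 0.43, a description only, since the minimum chose it through GC libraries. The erythroid markers, listed above, were also higher in GC libraries and lowest in vitro. Macrophage markers, too, summed to 7.24 to 8.12 log2 in early GC, 6.69 to 7.96 in peak GC, 8.81 to 10.93 in late GC, 4.68 to 5.0 in in vivo activated, 2.74 to 3.71 in in vitro and 4.98 to 5.14 in naive libraries. Within peak GC, both Slc25a21 and the macrophage sum were lowest in replicate 1 and highest in replicate 3. In early GC, replicate 1 had the highest macrophage sum (8.12 log2) and the lowest Slc25a21 (1.54). In late GC, replicate 3 had the lowest macrophage sum (8.81 log2) and the highest Slc25a21 (2.16). Late GC replicate 2 had the lowest Slc25a21 (1.84) with a middle macrophage sum (9.36 log2). The erythroid sum was lowest in the same replicate as Slc25a21 in each stage. It was 6.43 log2 in peak replicate 1 (6.45 in replicate 3), 7.27 in early replicate 1 and 8.47 in late replicate 2. The highest erythroid sum and the highest Slc25a21 fell in the same replicate in early GC only. These orders rest on 3 libraries a stage, and the part of these markers in the difference was not tested.

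Of the other amino acid carriers, the ornithine carrier Slc25a15 of the urea cycle rose against naive cells in all 5 comparisons, by 0.54 ± 0.09 in peak GC cells, 0.36 ± 0.09 after in vivo activation and 1.08 ± 0.09 to 1.17 ± 0.09 in vitro. The glutamate carrier Slc25a22 had 5.54, 5.52 and 5.63 log2 at 4 h against 3.93, 3.96 and 3.96 in naive libraries, a rise of 1.61 ± 0.07 (adjusted p = 1.30e-15) with no overlap. Its paralog Slc25a18 fell at 24 h to -1.39, -1.26 and -1.73 log2, against 0.59, 0.51 and 1.02 in naive libraries (-2.17 ± 0.25). In vivo activated libraries had -0.72, -1.23 and -0.85 log2 of Slc25a18, also below every naive library, while peak GC libraries had 1.03, 1.31 and 0.85 and overlapped naive libraries. The glycine carrier Slc25a38, which serves heme synthesis, rose by 0.48 ± 0.08 in peak GC and 0.66 ± 0.08 at 12 h over naive cells. Slc25a29, a carrier of basic amino acids, fell by 1.18 ± 0.23 in peak GC cells.

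Among cofactor carriers, Slc25a32, which carries folate into mitochondria, rose over naive cells by 1.28 ± 0.13 at 4 h and 1.29 ± 0.13 at 24 h, and by 0.57 ± 0.13 after in vivo activation. In peak GC cells it rose by 0.50 ± 0.13, a call that was lost without replicate 3 (0.39, adjusted p = 0.0702). Of the 4 mitochondrial folate enzymes, 4 rose at 24 h, and 3 rose and 1 fell in peak GC, both against naive cells; Mthfd2 averaged 7.20 log2 at 24 h and 4.07 in naive cells. The S-adenosylmethionine carrier Slc25a26 rose by 0.98 ± 0.17 at 4 h and fell by 0.64 ± 0.17 in peak GC. The coenzyme A carrier Slc25a42 rose by 1.19 ± 0.17 in peak GC and 0.92 ± 0.17 in in vivo activated cells, and Slc25a16, linked to coenzyme A as well, fell by 0.90 ± 0.07 at 12 h.

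Slc25a39 and Slc25a40 are paralogs that take glutathione into mitochondria, and they were high in different groups. Slc25a39 had 7.54, 7.65 and 7.63 log2 at 4 h, 7.71, 7.73 and 7.71 at 12 h and 7.37, 7.45 and 7.54 at 24 h, against 6.20, 6.07 and 6.08 in naive libraries. It had 6.11, 6.26 and 6.08 log2 in peak GC and 7.02, 6.76 and 6.91 in in vivo activated libraries. In vitro and in vivo activated libraries were above all naive libraries, and peak GC libraries overlapped them. The rise over naive cells was 1.598 ± 0.06 at 12 h (adjusted p = 9.52e-17) and 0.78 ± 0.06 after in vivo activation, while peak GC cells differed by 0.03 ± 0.06 (adjusted p = 0.646).

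Slc25a40 had 3.78, 3.43 and 3.53 log2 in peak GC libraries, 2.75, 2.71 and 2.71 after in vivo activation, and 1.86, 2.02 and 1.95 in naive libraries, 3 ranges with no overlap. In vitro it had 2.44, 2.30 and 2.52 log2 at 4 h and 2.55, 2.32 and 2.42 at 24 h. The rise over naive cells was 1.64 ± 0.12 in peak GC (adjusted p = 2.03e-11) and 0.49 ± 0.12 at 24 h. Set directly against in vivo activated cells, peak GC cells had less Slc25a39 (-0.75 ± 0.06, adjusted p = 2.93e-10) and more Slc25a40 (0.86 ± 0.12, adjusted p = 1.71e-06). Of the 4 glutathione synthesis enzymes, 1 was higher and 3 were lower in peak GC than in in vivo activated cells.

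The pyrimidine nucleotide carriers Slc25a33 and Slc25a36 bring nucleotides in for mitochondrial DNA and RNA. Slc25a33 had 4.73, 4.84 and 5.23 log2 in peak GC libraries, 3.53, 3.23 and 3.33 after in vivo activation, and 4.01, 4.05 and 3.85 in naive libraries, so that peak GC lay above and in vivo activated below the naive range. Peak GC exceeded in vivo activated cells by 1.57 ± 0.10 (adjusted p = 1.19e-12). In vitro it was highest at 4 h, with 5.42, 5.48 and 5.35 log2, a rise of 1.44 ± 0.10 over naive cells, and it had 4.75, 4.83 and 4.84 at 24 h. Slc25a36 had 4.30, 4.45 and 5.14 log2 in peak GC libraries, 4.06, 3.96 and 4.12 after in vivo activation, 4.40, 4.01 and 3.67 in 24 h, and 5.42, 5.86 and 5.63 in naive libraries. All 3 groups were below naive cells without overlap, with differences of -1.004 ± 0.18, -1.59 ± 0.18 and -1.61 ± 0.18.

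The mitoferrins Slc25a37 and Slc25a28 import iron for heme and iron-sulfur clusters. Slc25a37 (chr14:69241848-69285112, minus strand), the form that erythroid cells need, had 6.23, 6.20 and 5.89 log2 in peak GC libraries, 5.62, 5.99 and 5.84 after in vivo activation, 5.86, 5.76 and 5.78 in 24 h, and 7.26, 7.19 and 7.28 in naive libraries. Naive libraries were above all of these. The differences from naive cells were -1.14 ± 0.14 in peak GC (adjusted p = 1.53e-07), -1.43 ± 0.14 in in vivo activated, and -1.23 ± 0.14, -1.37 ± 0.14 and -1.44 ± 0.14 at 4, 12 and 24 h. Erythroid marker sums were below those of naive libraries in in vivo activated and in vitro libraries, as Slc25a37 was. In peak GC libraries they were above those of naive libraries, and Slc25a37 was below. The part of these markers in the differences was not tested. The widely expressed Slc25a28 fell, with differences of -0.32 ± 0.09 in peak GC and -0.61 ± 0.09 in in vivo activated cells, and was not called in vitro, at -0.14 ± 0.09, -0.02 ± 0.09 and -0.13 ± 0.09. Of 10 iron and heme genes, 6 rose and 2 fell in both peak GC and 24 h cells against naive cells; the transferrin receptor Tfrc averaged 9.40 log2 at 24 h and 6.77 in naive cells.

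The calcium-regulated ATP-Mg/phosphate carriers set the adenine nucleotide pool of the matrix. Slc25a23 had 3.12, 3.09 and 2.96 log2 in peak GC libraries, 2.93, 3.21 and 3.13 after in vivo activation, 3.43, 3.38 and 3.33 in 24 h, and 4.96, 4.74 and 4.88 in naive libraries. Naive cells stood apart from every other group, with differences of -1.81 ± 0.10 in peak GC (adjusted p = 2.69e-14), -1.77 ± 0.10 in in vivo activated and -2.14 ± 0.10 at 4 h. Slc25a25 fell, with differences of -1.74 ± 0.19 at 12 h, -1.71 ± 0.19 at 24 h and -0.83 ± 0.19 in in vivo activated cells, and differed by 0.16 ± 0.19 in peak GC (adjusted p = 0.437). Slc25a24 fell in peak GC, to 0.87, 0.93 and 1.69 log2, against 2.49, 2.89 and 2.63 in naive libraries (-1.51 ± 0.20, adjusted p = 2.98e-07), and differed by 0.30 ± 0.20 in in vivo activated cells (adjusted p = 0.164).

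The uncoupling-protein relatives and the carriers of little-known substrate were low to moderate in level. Slc25a14 rose by 0.74 ± 0.14 in peak GC cells, 1.43 ± 0.14 after in vivo activation and 1.45 ± 0.14 in 24 h cells over naive cells. Slc25a27 had -3.45, -3.04 and -2.48 log2 in peak GC against -0.43, -1.63 and -1.11 in naive libraries (-1.93 ± 0.53), a call lost without replicate 1 (-1.39, adjusted p = 0.102). Slc25a30 ranged over 0.94 log2 between group means and was highest in in vivo activated cells. Slc25a43 (chrX:36743659-36777202, plus strand), which neighbours Slc25a5 on the same strand, had 0.28, -0.05 and 0.97 log2 at 12 h and 0.09, 0.19 and 0.33 at 24 h, against -3.51, -3.31 and -3.85 in naive libraries. The difference of 12 h from naive cells was 3.96 ± 0.39, with the naive level near the floor, and is a description only, since the minimum was met through 12 and 24 h libraries alone. In peak GC cells Slc25a43 had -2.01, -2.23 and -2.31 log2, and with a pseudocount of 1 the difference from naive cells was not called (0.17, adjusted p = 0.181).

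Slc25a35 fell in peak GC, to -0.83, -0.54 and -1.01 log2, against 2.05, 1.58 and 1.68 in naive libraries (-2.57 ± 0.28, adjusted p = 1.29e-08), and in vivo activated libraries overlapped naive ones at 1.27, 1.54 and 1.63. Slc25a53 had 3.97, 3.77 and 3.76 log2 in peak GC libraries, 3.90, 4.18 and 3.90 after in vivo activation, 3.32, 3.18 and 3.15 in 24 h, and 5.03, 5.17 and 5.22 in naive libraries, with differences from naive cells of -1.31 ± 0.09, -1.15 ± 0.09 and -1.93 ± 0.09 and no overlap. Slc25a45 fell in vitro, with differences of -1.34 ± 0.08, -1.16 ± 0.08 and -1.53 ± 0.08 at 4, 12 and 24 h, and differed by -0.08 ± 0.08 in peak GC and 0.06 ± 0.08 in in vivo activated cells. Slc25a47, which met the minimum through in vitro libraries alone, differed from naive cells by 1.75 ± 0.30 at 4 h.

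Within the in vitro course, neighbouring times were compared directly. From 4 to 12 h, 15 members rose and 6 fell, beside 34.6% and 27.2% of all genes. Slc25a4 rose by 1.11 ± 0.05 and Slc25a12 by 0.76 ± 0.06, and Slc25a22 fell (-0.68 ± 0.07), as did Slc25a33 (-0.60 ± 0.10). From 12 to 24 h, 9 rose and 8 fell, beside 22.5% and 34.8% of all genes. Slc25a10, Slc25a13, Slc25a4 and Slc25a12 rose, by 1.85 ± 0.09, 1.40 ± 0.10, 0.68 ± 0.05 and 0.65 ± 0.06, and Slc25a53 (-0.66 ± 0.09) and Slc25a38 (-0.57 ± 0.08) fell.

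Promoter sequence was looked at for the members, with their rises at 4 h already known, so the calls set beside it are a description with no test. RefSeq promoters (build GRCm38.p6, 250 bases before to 50 after a start site, 300 in all) were found for 31 members, with 41 promoters. The palindrome CACGTG, an E-box that MYC-MAX and USF proteins can bind, was present in 7 of the 41 promoters (17.1%), against 7.15% of all 32851 promoters. By gene it was in 6 of the 31 members (19.4%), Slc25a14 having 2 start sites with the same match, against 8.09% of all 27025 genes with a promoter. Of these 6, Slc25a1, Slc25a13, Slc25a14, Slc25a15 and Slc25a33 rose at 4 h over naive cells and Slc25a36 was not called there (-0.22 ± 0.18). Of the 25 members whose promoters lacked it, 8 rose at 4 h, beside 38.9% of all genes tested. GCATGCGC, the core of the NRF1 site, and TGATGNAA, the core of the ATF4 composite site, searched on both strands, were in 0 of the 31 members' promoters, against 2.71% and 3.97% of all promoters. A match is a description of these letters and no evidence that a factor binds. The whole promoter is shown for Slc25a13, the member with the highest rise at 24 h among the 33 that met the minimum in every library, and 20 bases on either side of the E-box, as far as the promoter reaches, for the other 5, with the E-box in capitals.
Slc25a13, chr6:6217124-6217423, minus strand: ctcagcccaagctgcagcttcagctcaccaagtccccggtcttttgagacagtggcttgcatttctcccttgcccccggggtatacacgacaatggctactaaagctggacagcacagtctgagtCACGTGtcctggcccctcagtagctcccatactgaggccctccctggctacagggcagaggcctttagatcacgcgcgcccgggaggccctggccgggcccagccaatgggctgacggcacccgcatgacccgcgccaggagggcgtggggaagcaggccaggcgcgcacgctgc
Slc25a1, chr16:17928433-17928469, minus strand: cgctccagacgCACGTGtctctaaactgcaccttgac
Slc25a14, chrX:48623374-48623419, plus strand: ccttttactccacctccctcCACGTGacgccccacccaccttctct
Slc25a15, chr8:22398329-22398374, minus strand: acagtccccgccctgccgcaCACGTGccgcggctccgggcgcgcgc
Slc25a33, chr4:149774250-149774295, minus strand: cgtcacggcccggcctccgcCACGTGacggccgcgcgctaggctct
Slc25a36, chr9:97111203-97111248, minus strand: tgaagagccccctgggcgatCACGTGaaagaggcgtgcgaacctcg

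Peak GC cells were also set directly against in vivo activated cells. Dividing-cell markers summed to 10.87 to 11.27 log2 in peak GC and 10.53 to 10.60 log2 in in vivo activated cells, and both markers were higher in peak GC. The median absolute difference was 0.317 log2 over the members and 0.433 over all genes. Of the 40 members, 11 were higher and 12 lower in peak GC, beside 34.1% and 35% of all genes, with a median of -0.055 log2 over members and -0.006 over all genes. Besides Slc25a33 and Slc25a40, the higher ones in peak GC included Slc25a18 (1.995 ± 0.25) and Slc25a25 (0.99 ± 0.19). Slc25a21 differed by 2.74 ± 0.43, tied to the minimum as above. Besides Slc25a39, the lower ones included Slc25a35 (-2.27 ± 0.28), Slc25a24 (-1.81 ± 0.20) and Slc25a14 (-0.69 ± 0.14). Slc25a25 had 5.88, 6.65 and 6.63 log2 in peak GC libraries, all above the 5.38, 5.36 and 5.44 log2 of in vivo activated libraries. Erythroid, macrophage and neutrophil marker sums were higher in peak GC libraries, at 6.43 to 6.74, 6.69 to 7.96 and 4.49 to 6.59 log2, than in in vivo activated libraries, at 3.04 to 3.55, 4.68 to 5.0 and 1.43 to 1.82 log2, and their part in these differences was not tested.

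Between the GC stages, peak against early GC gave 2 higher and 4 lower members, beside 5.77% and 7.42% of all genes. Late against peak GC gave 4 higher and 13 lower, beside 12% and 20.6%, and late against early GC 2 higher and 12 lower, beside 13% and 22.1%. Without replicate 1 the late against peak comparison gave 3 higher and 5 lower, and the late against early comparison had 3 higher and 10 lower. The largest stage difference was that of Slc25a24, with 2.31, 2.69 and 2.58 log2 in early GC, 0.87, 0.93 and 1.69 in peak GC and 3.38, 2.88 and 2.92 in late GC, 3 ranges with no overlap. It fell by 1.36 ± 0.20 in peak against early GC (adjusted p = 4.40e-05) and rose by 1.90 ± 0.20 in late against peak GC (adjusted p = 7.16e-07), and still by 1.596 without replicate 1 (adjusted p = 0.000395). Late against early it rose by 0.54 ± 0.20 (adjusted p = 0.0391), which was lost without replicate 1 (0.27, adjusted p = 0.408). Macrophage marker sums were also higher in all 3 late GC libraries than in any early or peak one, and neutrophil sums were in late replicates 1 and 2 but not in replicate 3, at 6.33 log2 against 6.99 in early GC replicate 1. Erythroid sums were lower in peak GC (6.43 to 6.74 log2) than in early (7.27 to 8.66) and late GC (8.47 to 9.09). Within early and late GC they put the replicates in the same order as Slc25a24 did. In peak GC they did not, as replicate 3 with the highest Slc25a24 had 6.45 log2 and replicate 2 had 6.74. In vivo activated libraries had 2.87, 2.995 and 3.06 log2 of Slc25a24 with erythroid sums of 3.04 to 3.55 log2. The part of these marker sums was not tested.

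Slc25a33 had 4.28, 4.17 and 4.14 log2 in early GC, 4.73, 4.84 and 5.23 in peak GC and 4.87, 4.98 and 4.89 in late GC. Peak and late libraries were above all early ones, by 0.73 ± 0.10 (adjusted p = 1.26e-05) and 0.71 ± 0.10 (adjusted p = 6.85e-06). Slc25a15 went the other way, with 5.29, 5.36 and 5.46 log2 in early GC, 4.96, 4.93 and 4.79 in peak GC and 4.17, 4.62 and 4.57 in late GC, again with no overlap, and a difference of -0.92 ± 0.09 in late against early GC (adjusted p = 7.80e-08). Its fall in peak against early GC (-0.48 ± 0.09) was lost without replicate 3 (-0.38, adjusted p = 0.0655). Slc25a51 (-0.50 ± 0.06), Slc25a10 (-0.61 ± 0.09), Slc25a28 (-0.55 ± 0.09) and Slc25a23 (-0.52 ± 0.10) also fell in late against early GC.

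Slc25a37 had 6.23, 6.87 and 6.79 log2 in early GC, 6.23, 6.20 and 5.89 in peak GC and 7.12, 6.60 and 6.86 in late GC. Late libraries were above all peak ones, and early replicate 1 lay beside the peak range. It rose by 0.75 ± 0.14 in late against peak GC (adjusted p = 0.000376). Its fall in peak against early GC (-0.53 ± 0.14) was lost without replicate 2 (-0.45, adjusted p = 0.138) and without replicate 3 (-0.34, adjusted p = 0.337). Slc25a21 differed by 1.48 ± 0.43 in late against peak GC, a description only, since the minimum chose it through GC libraries. Its call did not hold without replicate 1 (1.17) or replicate 2 (1.61). Slc25a38 rose by 0.30 ± 0.08 in late against peak GC, lost without replicate 3 (0.20, adjusted p = 0.0902). Early GC replicate 1 had the lowest Slc25a37 of the early libraries and also their lowest erythroid sum, 7.27 log2. Late GC replicate 2 was likewise lowest of its stage in both, at 6.60 and 8.47 log2. In peak GC, replicate 1 had the highest Slc25a37 (6.23 log2) with the lowest erythroid sum (6.43 log2). Replicate 3 had the lowest Slc25a37 (5.89 log2) with a nearly equal erythroid sum (6.45 log2), and replicate 2 had 6.20 and 6.74 log2. For all 3 members the erythroid marker sum was likewise lowest in peak GC of the 3 stages, and its part was not tested.

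**Figure D5:**
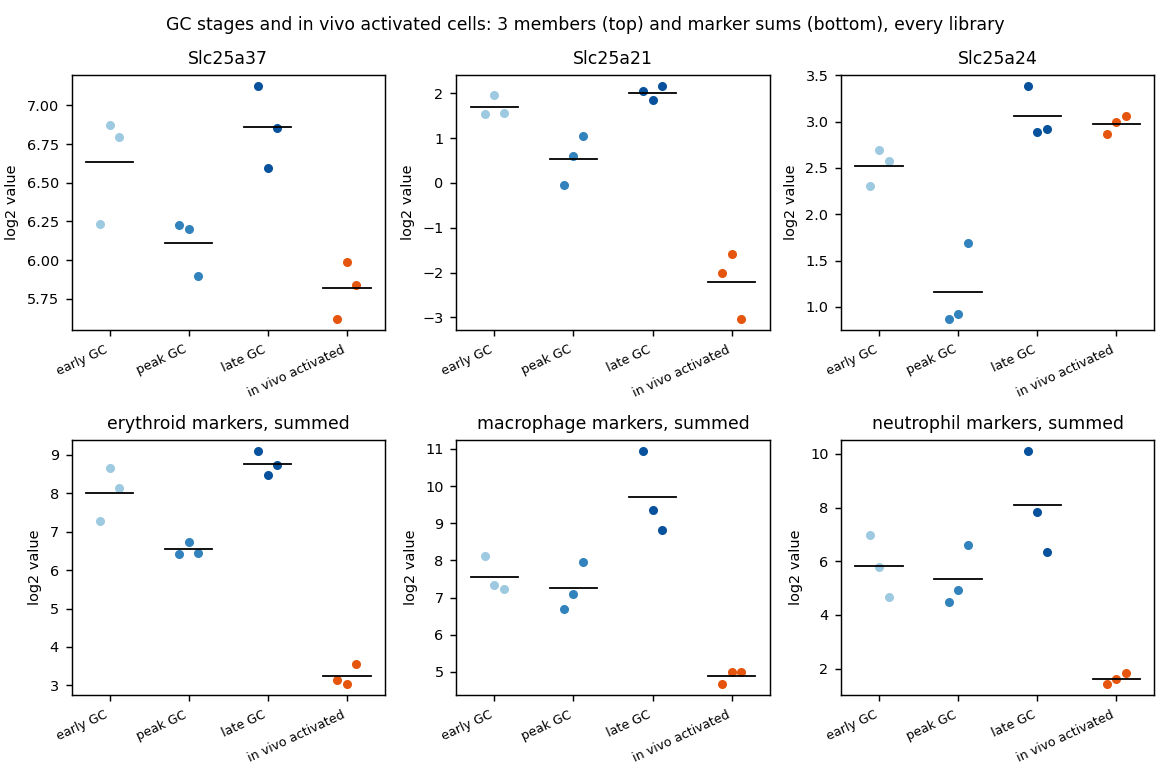
Log2 level of Slc25a37, Slc25a21 and Slc25a24 (top) and log2 of the summed linear levels of erythroid, macrophage and neutrophil markers (bottom) in every library of the 3 GC stages and of in vivo activated cells; lines are means. Peak GC libraries are the lowest of the 3 stages for Slc25a24 and for the erythroid sum, late GC replicate 1 has the highest macrophage and neutrophil sums, and in vivo activated libraries have Slc25a24 near late GC with the lowest marker sums.

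Carriers of the same fold under other symbols, and the machinery that imports carriers, were read from lists. Of 3 tested, the uncoupling protein Ucp2 and the outer-membrane relatives Mtch1 and Mtch2, 3 rose in peak GC over naive cells; Ucp2 averaged 10.91 log2 there and 9.43 in naive cells (1.49 ± 0.05). Of 14 genes of the carrier import path, 12 rose in peak GC libraries, 13 after in vivo activation, 13 at 4 h, 14 at 12 h and 14 at 24 h over naive cells, and 0 fell. Among them were the inner-membrane translocase Timm22, at 5.38 log2 in peak GC and 4.01 in naive cells, and Tomm40, the outer-membrane pore, at 7.97 log2 at 24 h and 5.63 in naive cells. Of all genes tested, 40.5% rose in peak GC, 39.2% after in vivo activation, and 38.9%, 41.7% and 42.2% at 4, 12 and 24 h. Against in vivo activated cells, 1 of the 14 import genes was higher and 8 were lower in peak GC, beside 34.1% and 35% of all genes. The mitochondrial pyruvate carrier, of another protein family, split in peak GC cells, where Mpc1 fell by 0.90 ± 0.11 and Mpc2 rose by 0.22 ± 0.08, and both rose at 24 h. Of 5 polyamine and ornithine enzymes, 3 rose and 0 fell in peak GC and 4 rose and 1 fell at 24 h, all against naive cells. The shares of all genes that rose or fell are the background for every list count in this report. The lists are small and were not tested as sets.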

How the data were processed

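The deposited log2 values of each library were used as they stand. Per the labels' protocols, libraries were made with a stranded mRNA kit and read as pairs of 75 bases; the submitters' processing notes list the mm10 genome and, as tools, limma, STAR 2.6.0c, Subread 1.6.2 with featureCounts, cutadapt 1.8.3 and FastQC 0.11.5, with their roles and options, strand setting included, not given in the sources used here. The linear values summed to 990678 to 1008194 per library, the value at rank 1000 differed by at most 0.03 log2 between libraries, and the means of the replicate numbers differed by at most 0.0009 log2, so a difference between numbers, if any, had been removed, which can make SEs too small. The depth is unknown and no detection limit is given; values under -5 log2 are called the floor.

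limma 3.58.1 in R 4.3.3 was fitted to all 24 libraries with a mean per group, a variance trend and robust moderation, over the 11885 genes at 0 log2 or more in at least 3 libraries, with two-sided p-values and Benjamini-Hochberg adjustment over all of them in each of 11 comparisons. It was tested on simulated data. Per-kilobase levels divide by the union of exons in GENCODE M21, in which all 46 symbols were found. Tables and figures used matplotlib 3.10.9, pandas 2.3.3 and numpy 2.4.6 in Python 3.11.15. The members, gene lists and tests were chosen with earlier results of these data known. Named in each comparison were up to 4 members in each direction with the largest called difference, no overlap and a mean of at least 0 log2 in the higher group, a set list of 16 carriers, and others where a role needed them, chosen after their values were seen; from other lists, up to 3 genes by the smallest p. Alternatives were no filter, a filter at 2 log2, a pseudocount of 1, median scaling, no trend or moderation, the libraries of 2 groups alone, a replicate block, and leaving out each replicate number. The values of 1 member are not reported here, though the counts and sums include it. Protein sequences were not used here. Near-identical carrier copies elsewhere in the genome could take or add reads, above all for Slc25a3, Slc25a4 and Slc25a5.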

Additional observations from a re-analysis of the deposited data

How the results depend on the processing

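Of 252 called member differences refitted under the alternatives, 2346 of 2480 refits kept direction and call, 134 lost the call and 0 reversed. Counts of members moved by over 1.5 times in these cases. With the libraries of 2 groups alone, members lower in 12 h against 4 h cells numbered 10 (6 in the full fit), lower in late against peak GC 3 (13), higher in peak against early GC 1 (2) and higher in late against early GC 1 (2). Without the filter, members lower in 24 h against 12 h cells numbered 5 (8) and higher in late against early GC 1 (2); with the filter at 2 log2, higher in peak against early GC 1. Leaving out a replicate number, members lower in 24 h against 12 h cells numbered 5 to 6, higher in peak against early GC 1 to 4, lower in peak against early GC 2 to 4, lower in late against peak GC 5 to 12, and higher in late against early GC 1 to 3. The cause was not tested; fewer libraries leave fewer degrees of freedom. Whether the replicate numbers pair the samples cannot be read from the values: same-numbered libraries of different groups deviated with correlations of -0.369 to 0.112 (median -0.127), but the numbers' means are equal in the deposited values, which by itself sets such correlations somewhat below 0. The replicate block gave 1 member higher in peak against early GC and 1 in late against early GC; calls in both directions numbered 11 in place of 14 in late against early GC, 15 in place of 17 in late against peak GC, 19 in place of 21 in 12 h against 4 h cells, and at most 1 fewer in the other 8 comparisons. Median scaling moved group medians by at most 0.002 log2. Depth sets no stated limit, and small GC stage differences rest on single replicate numbers.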

Other observations

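Some members lie beside each other in the mm10 annotation. Slc25a29 (chr12:108825873-108835883, minus strand) and Slc25a47 (chr12:108836046-108856815, plus strand) start close together on opposite strands. In late against early GC cells both fell, Slc25a29 to -0.78, -1.46 and -1.22 log2 against 0.29, -0.49 and -0.51, and Slc25a47 to -1.996, -2.09 and -1.83 log2 against -0.82, -0.80 and -0.90. The fall of each was lost without replicate 2, at adjusted p = 0.0568 and 0.122 in limma. At 4 h Slc25a47, which met the minimum through in vitro libraries alone, differed from naive cells by 1.75 ± 0.30 and Slc25a29 by -0.21 ± 0.23 (adjusted p = 0.411 in limma). Slc25a43 and Slc25a5 lie on the X chromosome on the same strand; Slc25a5 rose by 1.47 ± 0.05 at 4 h over naive cells and differed by 0.05 ± 0.05 between 12 h and 4 h (adjusted p = 0.406 in limma), while Slc25a43, which met the minimum through 12 and 24 h libraries alone, differed by 2.03 ± 0.39 and 1.93 ± 0.39.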
